A study of Mus musculus with 6 samples.

Results

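The sort that gave these libraries removed EPCAM-positive epithelial cells, CD45-positive leukocytes and CD31-positive endothelial cells, yet 85 of the 977 wells that passed the filter met a rule for epithelial transcripts. These 85 wells were chosen by their measured transcripts. A well was a member when its rounded count of *Epcam* was 2 or more or when at least 3 of the 6 genes *Krt14*, *Krt5*, *Dsp*, *Sfn*, *Perp* and *Itgb4* were detected. Before this, wells were required to have 100 to 6000 detected genes, less than 10% of their transcripts from the mitochondrial chromosome and at most 1 rounded transcript of *Ptprc*, the gene of CD45. Members with more *Krt5* and *Krt14* than *Krt8*, *Krt18* and *Krt20* were called squamous, which gave 35 wells, and the remaining 50 are called the other members. All remaining passing wells, labelled by the submitters as cancer-associated fibroblasts, are called the non-member wells.

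The study's methods state that tumors of the colon were induced with the carcinogen azoxymethane (AOM) and the colitis agent dextran sodium sulfate (DSS). Single cells were measured by SORT-seq, in which each sorted cell gets its own well and primer barcode on a plate of 384 wells. There were 3 FibCtrl mice (mice 1, 3 and 4, named by the number of their plate) with floxed *Zeb1* and no Cre, and 3 FibΔZeb1 mice (mice 2, 5 and 6) with the same floxed alleles and the *Col6a1*Cre transgene, all on the C57BL/6 background. *Col6a1*Cre acts in fibroblasts and other mesenchymal cells, so the epithelial wells are not the cells in which deletion was intended. Each plate is 1 mouse and the genotypes share no plate, so differences between plates and between mice cannot be told apart.

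The squamous wells had a median of 13882 transcripts, the other members 10241 and the non-member wells 7944, and the median share of mitochondrial transcripts was 6.97%, 6.96% and 6.54%. The 384 well positions, and with them the well barcodes, were the same on all 6 plates by design, and 6 of the 79 positions that held a member held 1 on more than 1 plate. *Zeb1* was measured at 107, 86.5 and 84.4 CPM (transcripts of the gene per 1e+06 transcripts of the pooled wells) in the non-member wells of FibCtrl mice 1, 3 and 4 and at 55.5, 69.7 and 57.5 CPM in those of FibΔZeb1 mice 2, 5 and 6, so the levels of the genotypes did not overlap; whether the counted ends of the transcripts lie in the deleted part is not given in the sources used here. In the members, *Zeb1* was nearly absent, with 2 transcripts in the squamous wells and 1 in the other members.

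Simple glandular epithelium, such as that of the colon, is held together by tight junctions with claudins and builds its cytoskeleton from KRT8, KRT18, KRT19 and KRT20. Squamous epithelium, such as that of skin and anus, rests on a basal layer that expresses KRT5, KRT14 and KRT15 under the transcription factor p63 (*Trp63*) and anchors itself by hemidesmosomes. In mouse models of colon cancer, tumor cells with activated Wnt signaling express feedback genes of the pathway, among them *Axin2*, *Nkd1* and the secreted Wnt deacylase *Notum*.

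Both kinds of well were spread very unevenly over the mice. Squamous wells numbered 3, 0 and 1 in FibCtrl mice 1, 3 and 4 and 2, 29 and 0 in FibΔZeb1 mice 2, 5 and 6. The other members numbered 2, 3 and 22 in the FibCtrl mice and 0, 5 and 18 in the FibΔZeb1 mice. Thus mouse 5 held most squamous wells, mice 4 and 6 held most of the other members, and each genotype had at least 1 mouse with very few members of any kind.

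**Figure D1:**
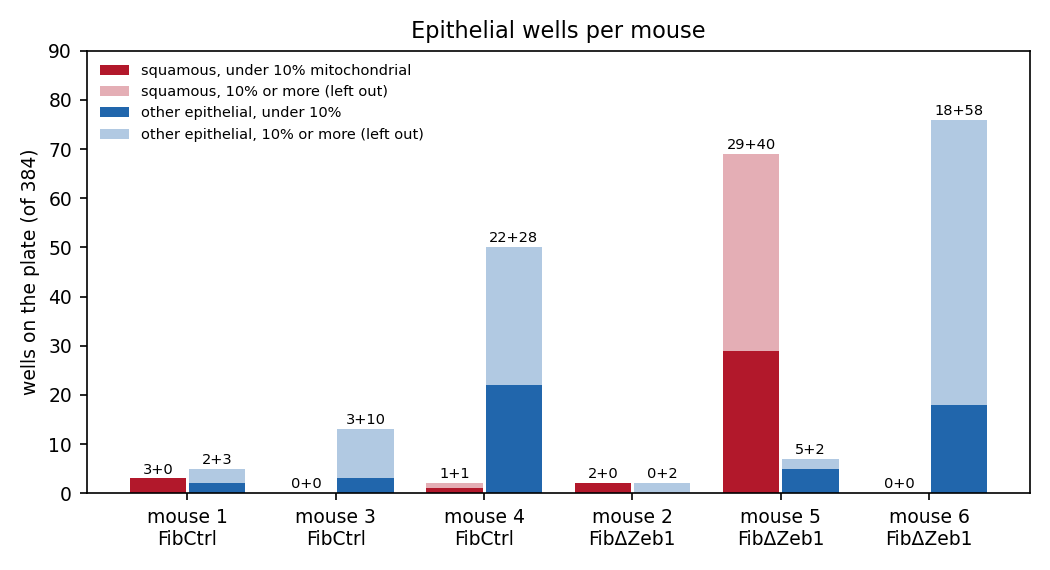
Bars give the number of epithelial wells on each plate of 384 wells, squamous in red and other epithelial in blue. Dark bars are wells under the mitochondrial limit of 10% and are the members, pale bars are wells at or over the limit that were left out, and the numbers above the bars give both. Mouse 5 held 29 and 40 squamous wells, and mouse 6 held 18 and 58 other epithelial wells.

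As a share of passing wells, squamous wells made up 1.45% in mouse 1 (95% Clopper-Pearson interval 0.300 to 4.18, covering counting error only), 0 of 113 wells in mouse 3, which allows a share of up to 2.65%, and 0.775% (0.0196 to 4.24) in mouse 4. In the FibΔZeb1 mice the share was 0.769% (0.0933 to 2.75) in mouse 2, 14.1% (9.64 to 19.6) in mouse 5 and 0 of 62 wells in mouse 6, which allows up to 4.84%. The genotypes overlapped. The mean share was 0.741% ± 0.725 in FibCtrl and 4.95% ± 7.92 in FibΔZeb1 mice (SD, n = 3 each), a difference of 4.21 percentage points that did not pass an exact two-sided permutation test over mice (p = 0.9, where 3 against 3 cannot go below 0.1). The difference rested on mouse 5, and without it turned to -0.357 percentage points.

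The other members made up 0.966% (95% Clopper-Pearson interval 0.117 to 3.45) of passing wells in mouse 1, 2.65% (0.551 to 7.56) in mouse 3 and 17.1% (11.01 to 24.7) in mouse 4. They were 0 of 260 wells in mouse 2, which allows up to 1.15%, 2.43% (0.793 to 5.57) in mouse 5 and 29.0% (18.2 to 41.9) in mouse 6. The highest share of each genotype stood far above its other mice. The means were 6.89% ± 8.84 and 10.5% ± 16.1 (SD, n = 3 each), a difference of 3.59 percentage points with p = 0.9 in the exact two-sided permutation test. Without mouse 6 the difference was -5.68 percentage points and without mouse 4 it was 8.68.

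The rule left clear cases and a few marginal ones. All 6 markers were detected in 23 of the 35 squamous wells and in 0 of the 50 other members. *Epcam* reached 2 transcripts in 41 other members and in 8 squamous wells. Of the squamous wells, 27 entered by the markers alone, 1 by *Epcam* alone and 7 by both, and of the other members 9, 16 and 25. The 5 keratins of the rule summed to a median of 2 transcripts in the 5 wells just inside the marker limit and 3.5 in the 8 wells with an *Epcam* count of exactly 2 and fewer than 3 markers, against 47.7 in the remaining 72 members. Just outside the rule, the 38 wells with 2 markers had a median of 2 keratin transcripts and the 41 wells with an *Epcam* count of 1 had a median of 1. Of the 892 non-member wells, 693 had 0 markers and an *Epcam* count of 0.

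These keratins define the kinds, so their distance from the dividing line is a description and not a result. No transcript of *Krt5* or *Krt14* was detected in 42 of the 50 other members, and none of *Krt8*, *Krt18* or *Krt20* in 17 of the 35 squamous wells. Only 4 squamous wells and 11 other members lay within 5 transcripts of the dividing line, and 1 other member had none of the 5 keratins and entered by *Epcam*.

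**Figure D2:**
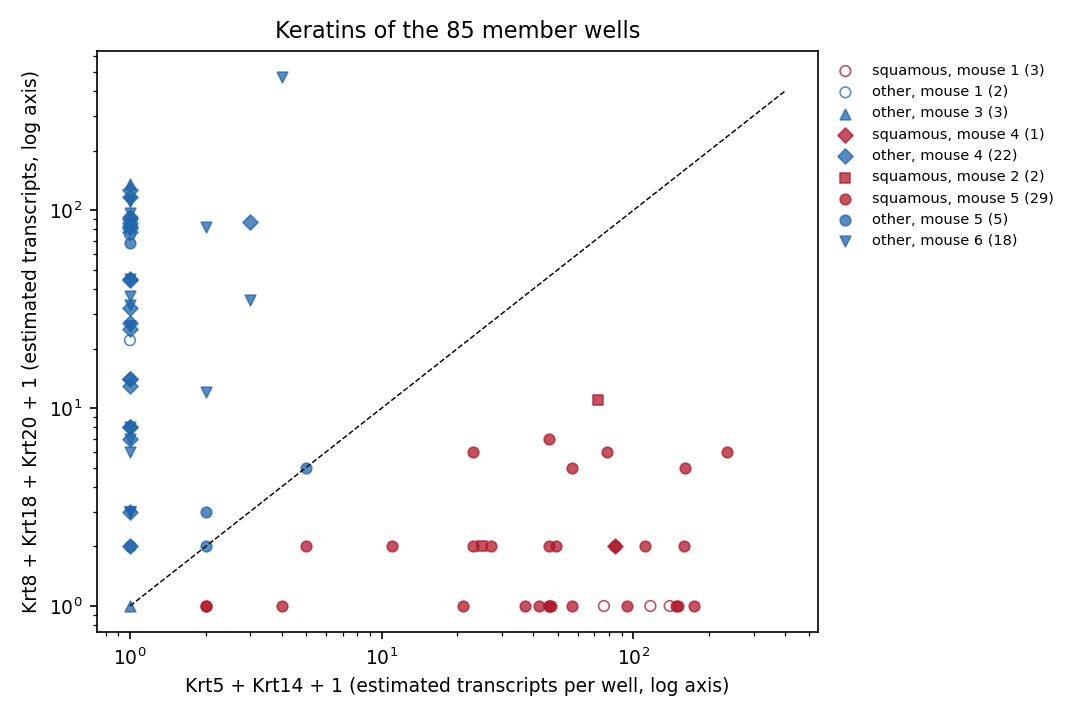
Each point is 1 of the 85 member wells, with *Krt5* and *Krt14* on the horizontal and *Krt8*, *Krt18* and *Krt20* on the vertical axis as estimated transcripts plus 1 on log axes; colours give the kind and symbols the mouse. Since these genes define the kinds, the gap between the groups is a description; 42 other members lie on the left edge and 17 squamous wells on the bottom edge.

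Some members also carried fibroblast transcripts. A list of 10 fibroblast genes, among them *Col1a1*, *Col3a1*, *Dcn* and *Sparc*, summed to 4767 CPM in the pooled squamous wells and 8517 CPM in the other members, against 53934 CPM in the non-member wells, and all 10 genes were detected in both kinds. In 9 squamous wells and 16 other members, fibroblast transcripts outnumbered those of the 10 genes of the rule. These 25 wells numbered 1, 1 and 5 in mice 1, 3 and 4 and 2, 11 and 5 in mice 2, 5 and 6. Without them, *Dcn* fell from 2111 to 703 CPM in squamous wells and from 1527 to 80.5 CPM in the other members, *Krt14* was at 2734 instead of 2447 CPM in squamous wells and *Krt8* at 3979 instead of 2966 CPM in the other members. Whether such wells held more than 1 cell or free RNA was not tested. Of the defining genes of other cell types, *Cdh5*, *Kdr* and *Emcn* of endothelium were at 0 in both kinds, but *Cldn5* had 20.03 transcripts in 3 other members and *Esam* 13 in 4, and the whole list of 10 endothelial genes summed to 5.92 CPM in squamous wells, 80.0 CPM in the other members and 97.1 CPM in the non-member wells. *Ptprc*, which the filter limits, had 3 and 1 transcripts, and the list of 10 leukocyte genes summed to 33.5 and 53.3 CPM.

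Squamous and other members were compared as pooled sums, since the split used keratins of the same wells; ratios are given without a test. Of 10180 genes with at least 10 transcripts in the members, 14.7% were at least 2-fold higher in squamous wells and 26.3% at least 2-fold higher in the other members, and the median log2 ratio of squamous over other was -0.23. Mouse 5 was the only mouse with at least 3 wells of each kind.

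In the pooled squamous wells, squamous identity extended beyond the genes that chose them, though not in every well. *Krt15*, a keratin of basal keratinocytes, was at 574 CPM in squamous wells and 3.55 CPM in the other members, *Trp63* at 346 and 1.78 CPM, and *Col17a1*, which encodes the hemidesmosomal collagen XVII, at 235 CPM and 0. *Lgals7*, *Trim29* and *Car12*, named for their large ratio of squamous over other members, had 150, 140 and 154 transcripts in squamous wells and 0 in the other members. *Krt15*, *Trp63* and *Col17a1* were also among the 15 genes with the largest ratio. Apart from *Krt5* and *Krt14*, 8 genes of the list of basal keratins and transcription factors had enough transcripts. Of these, 6 were at least 2-fold higher in squamous wells and 0 at least 2-fold lower, with a median log2 ratio of 3.25. Over the 10180 genes compared, 14.7% were higher and 26.3% lower. *Tfap2a* and *Tfap2c*, transcription factors of surface ectoderm, were at 158 and 71.0 CPM against 23.1 and 5.33 CPM, whereas *Klf5* was lower in squamous wells, with 163 against 314 transcripts and a log2 ratio of -0.79, and *Sox2* at 53.3 and 44.5 CPM.

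*Krt15*, *Trp63* and *Col17a1* were present in the squamous wells of every mouse that had any. *Krt15* was at 2479 CPM in the 3 squamous wells of mouse 1, 421 CPM in the 2 of mouse 2, 2349 CPM in the single well of mouse 4 and 403 CPM in the 29 of mouse 5. *Trp63* was at 697, 715, 938 and 286 CPM and *Col17a1* at 666, 842, 1314 and 145 CPM in these mice. *Trp63* and *Col17a1* had their lowest level in mouse 5, and all 10.01 transcripts of *Krt15* in mouse 2 came from 1 of its 2 wells.

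Other genes were high in the squamous wells of mouse 5 and low in the squamous wells of mice 1, 2 and 4. *Fabp5*, which encodes the epidermal fatty acid binding protein, was at 3448 CPM in mouse 5 and at 285, 126 and 375 CPM in mice 1, 2 and 4. *Lcn2*, which encodes the iron-sequestering antimicrobial protein lipocalin 2, was at 1481 CPM in mouse 5 and at 31.7, 0 and 93.7 CPM in the others, and *Scd1*, the stearoyl-CoA desaturase, at 2998 CPM against 0, 42.1 and 0 CPM. *Lcn2* is also a neutrophil gene, and the neutrophil genes *S100a8*, *S100a9* and *Retnlg* were at 125, 49.4 and 5.92 CPM in squamous wells against 731, 1051 and 187 CPM in the non-member wells. The whole list of 10 neutrophil genes, *Lcn2* included, summed to 1525 CPM in squamous wells, 614 CPM in the other members and 2692 CPM in the non-member wells, and the part of neutrophil RNA in the level of *Lcn2* was not tested. Among the other members, *Lcn2* reached 4101 CPM in the 2 wells of mouse 1. With 6 squamous wells outside mouse 5, these are values of single mice and were not tested.

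In the pooled wells, adhesion genes divided by kind. In the desmosome list, *Dsc3* and *Pkp1* were at 154 and 136 CPM in squamous wells and 44.4 and 26.6 CPM in the other members, while *Dsg2*, the desmoglein of simple epithelia, was at 92.7 and 422 CPM. *Itgb4* and *Dsp*, which the rule used, differed less between the kinds, with 229 and 299 CPM for *Itgb4* and 411 and 448 CPM for *Dsp*. *Lama3* and *Lamb3*, which encode laminin chains of the epithelial basement membrane, were higher in the pooled other members, at 278 and 245 CPM against 45.4 and 67.1 CPM. Within mouse 5, *Lama3* was at 56.8 CPM in the other members and 38.6 CPM in squamous wells, but *Lamb3* was at 18.9 CPM, from 1 transcript, and 38.6 CPM. In mouse 4, *Lama3* was at 311 CPM in the other members and 375 CPM in its 1 squamous well. For the tight junction, *Cldn3*, *Cldn4* and *Cldn7* were at 474, 1230 and 375 CPM in the other members and at 1.97, 1.97 and 5.92 CPM in squamous wells. In the 5 other members of mouse 5 they were at 209, 0 and 304 CPM. Of the 11 genes of the junction list with enough transcripts, 10 were at least 2-fold higher in the other members, against 26.3% of the 10180 genes compared. Without the 2 wells rich in *Lypd8* that are described with the colon genes, *Cldn7* was at 223 instead of 375 CPM in the other members. The exception was *Cdh3*, P-cadherin, with 34 transcripts in squamous wells and 0 in the other members.

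The list of squamous differentiation and the cornified envelope had genes on both sides. Of 18 genes, 7 were at least 2-fold higher in squamous wells and 7 in the other members. Over the 10180 genes compared, these shares were 14.7% and 26.3%. The list summed to 4990 and 3812 CPM, against 440 CPM in the non-member wells. Genes of the latest stages were low in squamous wells. *Krt1* and *Krt10*, keratins of the suprabasal epidermis, had 9 and 8 transcripts in squamous wells, *Ivl* and *Lor*, which encode proteins of the cornified envelope, had 2 and 13, and *Sprr1b*, *Sprr2d* and *Sprr3* had 0. *Krtdap* and *Dmkn* were detected in 9 and 11 squamous wells at 71.1 and 134 CPM and *Ly6d* in 13 at 170 CPM. *Sprr1a* showed the opposite distribution, with 787 CPM in the other members and 15.8 CPM in squamous wells, and 11 of the 12 other members with *Sprr1a* came from mouse 4, where 1 well held 257.9 transcripts and the level without it was 879 instead of 1884 CPM.

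Most genes of the cell cycle list were higher in the pooled squamous wells, but the direction did not hold in every mouse. Of 17 genes of the cell cycle list, 12 were at least 2-fold higher in squamous wells and 1, *Ccnd1*, was at least 2-fold higher in the other members. Over the 10180 genes compared, these shares were 14.7% and 26.3%. The median log2 ratio of the list was 1.51. By mouse, the list summed to 3076, 1897, 937 and 2018 CPM in the squamous wells of mice 1, 2, 4 and 5. In the other members it summed to 2451, 1018, 1164, 417 and 1136 CPM in mice 1, 3, 4, 5 and 6. In mouse 4, which had 1 squamous well, the other members were thus higher. *Mki67* was at 98.8 and 21.3 CPM, *Mcm5* of the replicative helicase at 63.2 and 12.4 CPM and *Ccnd2* at 686 and 213 CPM. In the squamous wells of mouse 5, *Mki67* was at 61.9 instead of 107 CPM and *Top2a* at 4.76 instead of 63.7 CPM without the highest well. When wells were thinned to 500 barcodes, *Mki67* was detected in 2.86% of squamous wells and 2% of the other members, so a difference was not detectable at that depth. At least 2 of *Mki67*, *Top2a*, *Cdk1*, *Ccnb1* and *Birc5* were detected in 17.1% of squamous wells (6 of 35), 10% of the other members (5 of 50) and 2.47% of the non-member wells (22 wells), at the depths given above.

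**Figure D3:**
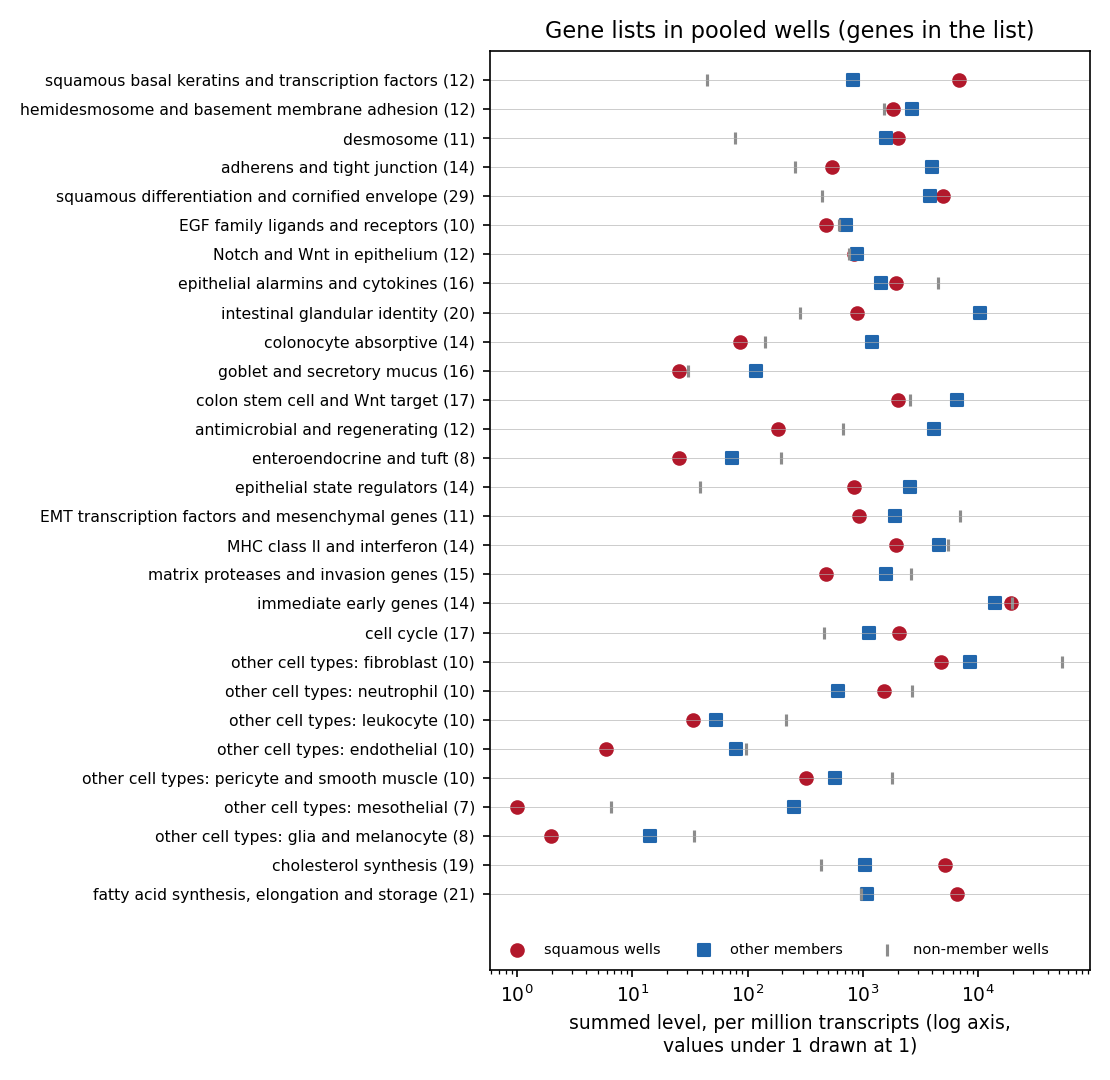
The summed level of each gene list in pooled wells, in CPM on a log axis, with squamous wells as red circles, the other members as blue squares and the non-member wells as grey ticks; the number of genes is in parentheses. Squamous wells lie above the other members for basal keratins (6863 against 815 CPM), and the other members lie above squamous wells for intestinal glandular identity (10429 against 887 CPM). For cholesterol synthesis the pooled squamous wells also lie higher (5166 against 1040 CPM), but only through mouse 5. Its squamous wells were at 5842 CPM, against 538, 757 and 750 CPM in those of mice 1, 2 and 4.

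The squamous wells themselves were not uniform. In 26 wells *Krt5* ranged from 3 to 142 transcripts, while in 9 wells, all from mouse 5, it was 0 or 1. The rule requires *Krt14* in a squamous well without *Krt5*. In the 9 wells *Krt14* had a median of 20.1 transcripts, and 3 of them held only 2, 1 and 1. The division by *Krt5* was chosen after the values had been seen. In 5 of the 9 wells, genes of cholesterol and fatty acid synthesis stood above the highest *Krt5*-rich well. A list of 19 enzymes of cholesterol synthesis summed to 43942, 40245, 32051, 7671 and 4886 CPM in these 5 wells, to 3287 CPM in the next and to 654, 541 and 163 CPM in the remaining 3. In the 26 *Krt5*-rich wells the sum had a median of 1035 CPM and a highest value of 3639 CPM. The genes of fatty acid synthesis summed to 46834, 72719, 35200.4, 5504 and 14027 CPM in the 5 wells, with a highest value of 4853 CPM in the *Krt5*-rich wells. Among the 20 *Krt5*-rich wells of the same mouse the median was 1614 CPM for cholesterol synthesis and 1538 CPM for fatty acid synthesis. The highest single well reached 5142 and 4893 CPM for these lists among the other members, and 7246 and 13687 CPM among the non-member wells. The well at 4886 CPM for cholesterol synthesis lay below both of these groups' highest values, and the well at 5504 CPM for fatty acid synthesis below that of the non-member wells. The 3 low wells and the well at 40245 CPM held more transcripts of the fibroblast genes than of the rule genes.

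In the pool of the 9 wells, most enzymes of the pathway were higher. Pooled over the 9 wells, 17 of the 19 enzymes were at least 2-fold higher than in the *Krt5*-rich wells, against 15.4% of 7165 genes, with a median log2 ratio of 2.997 against -0.07. This list and that of the fatty acid genes were chosen after the members had been seen, so these shares are a description. The pool joins the 3 wells at 43942, 40245 and 32051 CPM with the 3 at 654, 541 and 163 CPM. *Hmgcs1*, which makes HMG-CoA, was at 2110 and 264 CPM, *Idi1*, the isopentenyl diphosphate isomerase, at 2063 and 88.1 CPM, and *Lss*, the lanosterol synthase, at 608 and 22.0 CPM. The exceptions were *Sc5d* at 13.9 and 22.0 CPM and *Dhcr7* at 6.97 and 35.8 CPM.

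Of 21 genes for the synthesis, elongation and storage of fatty acids, 18 had enough transcripts and 14 were at least 2-fold higher in the *Krt5*-poor wells. Over the 7165 genes compared, this share was 15.4%. *Scd1* was at 8087 and 447 CPM and was detected in all 9 wells, *Fa2h*, the fatty acid 2-hydroxylase, at 2017 and 13.8 CPM, and *Elovl3*, an elongase of very long chain fatty acids, at 869 and 2.75 CPM. *Fa2h* and *Elovl3* were concentrated in 3 wells, with 105, 74.7 and 108 transcripts of *Fa2h* and 47.3, 26.1 and 50.3 of *Elovl3*, while the other 6 wells held at most 1 of each. *Pparg*, a transcription factor of lipid-forming cells, was at 76.7 and 96.3 CPM and *Awat2*, a wax synthase of sebaceous glands, was at 20.9 and 0 CPM.

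Some genes known from basal cells were higher in the *Krt5*-rich wells, a division that *Krt5* itself made. *Krt15* was at 798 CPM against 6.97 CPM in the *Krt5*-poor wells, *Krt17* at 511 CPM against 0, *Col17a1* at 317 and 27.9 CPM and *Smoc2* at 403 and 6.97 CPM. In the 20 *Krt5*-rich wells of mouse 5 alone, the mouse of all *Krt5*-poor wells, these genes were at 594, 476, 202 and 239 CPM. *Lgr5*, a stem cell gene of colon crypts and hair follicles, was detected in 14 of the 26 *Krt5*-rich wells at 132 CPM and in 0 of the 9 *Krt5*-poor wells. *Perp* did not follow this division, with 913 and 979 CPM, and *Itga6*, an integrin of hemidesmosomes, was at 127 and 90.7 CPM.

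The same division was examined in 41 squamous wells at or over the mitochondrial limit, which had not been used to choose it; 40 of them came from mouse 5, so they add wells and not mice. In the 22 wells with 0 or 1 transcript of *Krt5*, the cholesterol synthesis genes summed to a median of 4146 CPM, with a highest value of 24663 CPM, and in the 19 *Krt5*-rich wells to 1909 CPM, with a highest value of 5694 CPM. The ranges overlapped. Of the 17 enzymes with enough transcripts, 15 were at least 2-fold higher in the *Krt5*-poor wells, against 11.8% of 7223 genes, with a median log2 ratio of 2.11. *Idi1* was at 2008 and 278 CPM, *Scd1* at 5745 and 877 CPM and *Krt15* at 0 and 143 CPM. *Scd3*, which was at 906 and 19.3 CPM in the members, did not divide these wells, with 35.1 and 36.6 CPM. Of the 18 fatty acid genes with enough transcripts 10 were at least 2-fold higher, with a median log2 ratio of 1.36 against 2.77 in the members. *Lgr5* was detected in 1 of the 19 *Krt5*-rich wells, at 3.66 CPM.

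**Figure D4:**
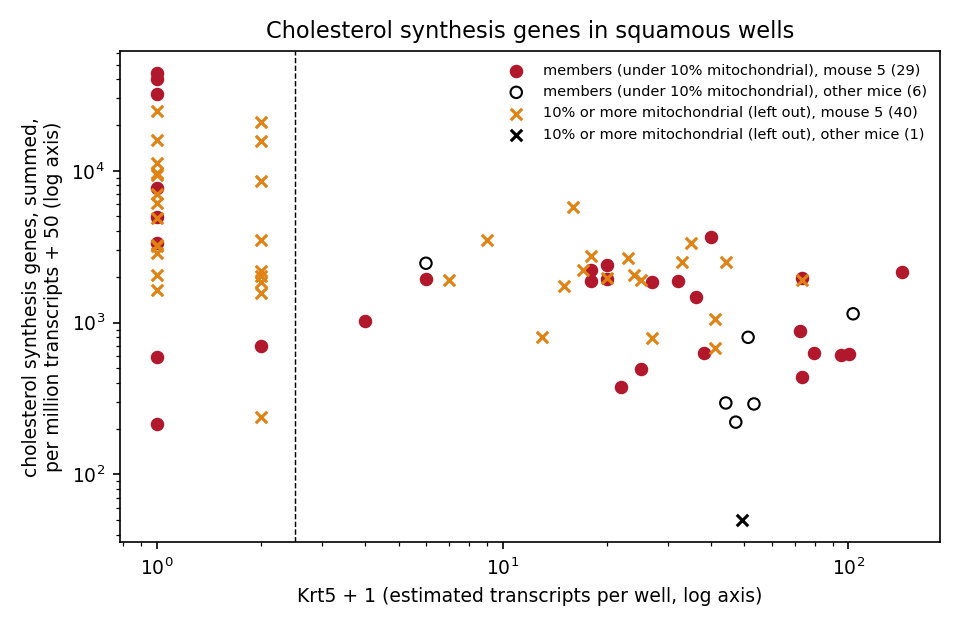
Each point is a squamous well, with *Krt5* transcripts plus 1 on the horizontal axis and the summed level of 19 cholesterol synthesis enzymes in CPM plus 50 on the vertical axis, both on log axes; the dashed line divides *Krt5*-poor from *Krt5*-rich wells. Members are circles and wells left out for mitochondrial transcripts are crosses; the highest member lies at 43942 CPM and the highest *Krt5*-rich member at 3639 CPM.

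Since the enzymes of cholesterol synthesis moved together, the RefSeq promoter windows of mouse build GRCm38.p6, from 250 bases before to 50 bases after each start, were searched on both strands for CCAAT and for TCACNCCAC, a form of the sterol regulatory element; these motifs do not overlap each other. A window was given for 14 of the 19 enzymes measured, and 13 of these 14 held CCAAT, against 41.1% of all 27025 genes with a window. *Sc5d* and *Dhcr7*, which were not higher in the *Krt5*-poor wells, also held it. TCACNCCAC was found in 1 of the 14 genes and in 1.44% of all genes. The 2 windows shown are those of *Hmgcs1* (chr13:119690101-119690400, plus strand) and *Idi1* (chr13:8885356-8885655, plus strand), read 5′ to 3′, with the motifs in capitals; *Hmgcs1* held CCAAT 4 times, always as its reverse complement ATTGG, and is the gene with TCACNCCAC. A match is a description of the letters and no binding was measured.
Hmgcs1: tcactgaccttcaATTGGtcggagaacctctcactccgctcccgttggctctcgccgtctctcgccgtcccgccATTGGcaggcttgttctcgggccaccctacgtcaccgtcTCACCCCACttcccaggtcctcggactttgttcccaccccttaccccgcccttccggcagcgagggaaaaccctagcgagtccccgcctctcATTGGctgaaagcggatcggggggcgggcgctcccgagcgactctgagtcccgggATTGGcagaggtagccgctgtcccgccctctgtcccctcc
Idi1: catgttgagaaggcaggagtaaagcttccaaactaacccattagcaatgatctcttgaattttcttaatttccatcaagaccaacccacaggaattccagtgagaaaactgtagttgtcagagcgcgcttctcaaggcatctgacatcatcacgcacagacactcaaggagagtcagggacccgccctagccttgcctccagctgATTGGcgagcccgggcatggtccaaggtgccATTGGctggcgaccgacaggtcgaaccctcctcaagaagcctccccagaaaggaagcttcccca

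The other members had the keratins and junctions of a glandular epithelium, including genes the rule did not use. *Krt19* was at 1299 CPM in the other members and 9.86 CPM in squamous wells, *Krt7* at 707 and 23.7 CPM, *Cdh1*, E-cadherin, at 680 and 112 CPM, and *Elf3*, an epithelial transcription factor, at 367 and 31.6 CPM. In the list of intestinal glandular identity, 15 genes outside the rule had enough transcripts. Of these, 14 were at least 2-fold higher in the other members, against 26.3% of the 10180 genes compared. The remaining 1, *Fxyd3*, was higher in squamous wells, at 462 and 163 CPM. Genes of the intestine were thinner. *Gpa33* was detected in 36 of 50 wells at 329 CPM, *Vil1*, villin, in 14 wells at 107 CPM, *Cdh17* in 9 wells at 118 CPM and *Hnf4a* in 9 wells at 53.3 CPM, while *Cdx2*, the transcription factor of intestinal identity, had 0 transcripts. These levels rested in part on 2 wells rich in *Lypd8*, and without them *Vil1* was at 39.5 CPM, *Cdh17* at 15.8 CPM and *Hnf4a* at 25.7 CPM.

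Wnt feedback genes marked most of these wells. *Nkd1* was at 1106 CPM in the other members, 7.89 CPM in squamous wells and 38.2 CPM in the non-member wells, *Notum* at 552, 13.8 and 17.8 CPM and *Axin2* at 381, 13.8 and 17.8 CPM. *Nkd1*, *Notum* and *Axin2* summed to at least 5 transcripts in 30 of 50 other members, in 0 of 35 squamous wells and in 17 non-member wells (1.91%). These wells came from both genotypes, with 2 of 2, 2 of 3 and 14 of 22 other members in mice 1, 3 and 4, and 0 of 5 and 12 of 18 in mice 5 and 6. *Axin2* was at 482, 591 and 316 CPM in mice 1, 3 and 4 and at 0 and 498 CPM in mice 5 and 6, and *Nkd1* at 2624, 860 and 1064 CPM and at 0 and 1292 CPM. Without its highest well, mouse 3 was at 189 CPM for *Axin2* and 284 CPM for *Nkd1*, and mouse 1 at 338 CPM for both. In mouse 5, 4 of the 5 wells were rich in fibroblast transcripts.

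Among the classical stem cell genes of the colon, *Lgr5* was detected in 10 other members at 46.2 CPM and *Ascl2* in 0, whereas *Clu* and *Anxa1*, which are induced in regenerating epithelium, were at 350 and 1524 CPM against 15.8 and 342 CPM in squamous wells. Without the 2 wells rich in *Lypd8*, *Clu* was at 152 CPM and *Anxa1* at 1066 CPM. The highest *Anxa1* well of mouse 6 held 305 transcripts, and without it the level in that mouse was 844 instead of 2112 CPM. Wnt ligands and antagonists were found as well, with *Wnt6* at 723, 537 and 431 CPM in the other members of mice 1, 3 and 4 and at 0 and 324 CPM in those of mice 5 and 6. *Dkk2* was at 361, 295 and 769 CPM and at 18.9 and 475 CPM in these mice. *Cdkn1a*, the cell cycle inhibitor p21, was at 1302 CPM in the other members and 154 CPM in squamous wells. *Plat*, tissue plasminogen activator, was at 740 and 21.7 CPM and *Mmp7*, an epithelial matrix metalloproteinase, at 219 and 1.97 CPM, with 1167, 188 and 320 CPM of *Mmp7* in mice 1, 3 and 4 and 0 and 56.3 CPM in mice 5 and 6. Without the highest well of each mouse, *Mmp7* was at 197, 0 and 169 CPM and at 0 and 25.4 CPM, and in the wells over the mitochondrial limit at 89.4, 101 and 86.2 CPM in mice 1, 3 and 4 and 57.7 CPM in mouse 6. *Pglyrp1*, a peptidoglycan recognition protein, was detected in 44 of 50 wells at 2142 CPM.

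Members with high levels of genes of differentiated colon cells were rare, after a sort that removed EPCAM-positive cells. A group of 2 wells, 1 in mouse 5 and 1 in mouse 6, held 345 and 1190 transcripts of *Lypd8*, an antibacterial protein of colonocytes, where the next well held 44.2. They also held 38.2 and 87.9 transcripts of *Epcam*, 19.0 and 97.1 of *Krt20* and 34.1 and 179 of *Muc13*, and 0 of *Nkd1*, *Notum* and *Axin2*. The well of mouse 6 was the deepest other member, with 40945 transcripts. Without these 2 wells, which were singled out after their values had been seen, *Lypd8* was at 674 instead of 3334 CPM in the other members, *Krt20* at 1.97 instead of 208 CPM, *Muc13* at 35.5 instead of 410 CPM and *Dmbt1* at 39.5 instead of 507 CPM. *Lypd8* was also at 169 CPM in the non-member wells. In the other epithelial wells over the mitochondrial limit, both genotypes held these genes. There *Lypd8* was at 10578.5, 3052 and 1094 CPM in FibCtrl mice 1, 3 and 4 and at 2283 CPM in FibΔZeb1 mouse 6. *Dmbt1* was at 2158, 88.5 and 168 CPM and at 296 CPM in these mice, and mouse 1 had only 3 such wells. Goblet cell genes were near 0, with 9 transcripts of *Muc2*, 3 of *Tff3* and 0 of *Spdef* in the other members, and of the 8 genes of enteroendocrine and tuft cells *Chga*, *Gcg* and *Il25* were at 0, *Chgb*, *Pyy* and *Pou2f3* had 1 transcript each, *Cck* had 20 in 7 wells and *Dclk1* 18.01 in 5 wells. *Msln* was detected in 21 other members, 15 of them from mouse 4, at 246 CPM, while of the other 6 mesothelial genes *Upk3b* had 3 transcripts, *Lrrn4* had 2 and *Upk1b*, *Wt1*, *Gpm6a* and *Nkain4* had 0.

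When each well was thinned to 500 barcodes, which left out none, the divisions kept their direction. *Krt15* was then detected in 20% of squamous wells (95% Clopper-Pearson interval 8.44 to 36.9) and in 0 of 50 other members (0 to 7.11), *Krt19* in 0 of 35 (0 to 10) and 36% (22.9 to 50.8) and *Nkd1* in 2.86% (0.0723 to 14.9) and 36% (22.9 to 50.8), against 51.4% and 4%, 11.4% and 80%, and 11.4% and 70% at full depth.

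Genotype was not used to choose the wells, so members were compared between genotypes by edgeR's quasi-likelihood test on summed counts per mouse. At least 5 members were present in mice 1 and 4 of FibCtrl and mice 5 and 6 of FibΔZeb1. Of 4932 genes, 0 passed an adjusted p of 0.05 (0% of genes tested), 129 had an unadjusted p below 0.05, and DESeq2 called 4, of which 3 were higher in FibΔZeb1 mice. *Krt8* differed by -0.04 ± 1.24 (log2 FibΔZeb1 over FibCtrl ± SE), *Krt14* by -0.03 ± 1.77, *Axin2* by -0.02 ± 1.26 and *Epcam* by 0.32 ± 0.99, each with an adjusted p of 0.999 in edgeR, so errors of this size leave large differences undetected. The smallest p, 0.000624, was that of *Serpina3n*, with 17.7 and 12.2 CPM in mice 1 and 4 and 247 and 244 CPM in mice 5 and 6 (adjusted p = 0.999 in edgeR). *Htra3*, *Cd248*, *Sparcl1* and *Lgals1* followed, all higher in FibΔZeb1 mice and all with an adjusted p of 0.999 in edgeR. Mice 5 and 6 held 16 and mice 1 and 4 held 6 of the wells rich in fibroblast transcripts, and 29 of the 34 members of mouse 5 were squamous against 4 of 28 in mice 1 and 4; the part of either in these values was not tested.

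In squamous wells alone only mouse 5 had at least 5 wells, so no test between genotypes could be made. In the other members alone, which was added after the data had been seen, mice 1, 3 and 4 were compared with mice 5 and 6, and of 1151 genes 1 was called (0.0869%). This was *Muc13*, with 0, 0 and 2 transcripts in the FibCtrl mice and 36 and 193 in the FibΔZeb1 mice (log2 change 6.88 ± 0.73, adjusted p = 0.0308 in edgeR). Of these, 34.1 and 179 transcripts came from the 2 wells rich in *Lypd8*, and *Krt20*, with adjusted p = 0.0812 in edgeR, had 19.0 and 97.1 of its 20 and 97 transcripts there. Among the other epithelial wells over the mitochondrial limit the genotypes overlapped, with 537, 126 and 95.8 CPM of *Muc13* in FibCtrl mice 1, 3 and 4 and 257 CPM in mouse 6, and 313, 88.5 and 38.3 CPM of *Krt20* against 77.8 CPM.

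Most epithelial wells were not among the members because of the mitochondrial limit. In all 2304 wells, 244 met the epithelial rule, of which 144 were at or over 10% mitochondrial transcripts with 100 to 6000 genes and at most 1 *Ptprc* transcript, 7 had more than 1 *Ptprc* transcript and 7 had more than 6000 genes. The limit left out 53.9% of squamous, 67.3% of other epithelial and 45.8% of non-epithelial wells. The 41 squamous wells left out had a median of 14.6% mitochondrial transcripts and 15252 transcripts in all, and the 103 other epithelial wells 25.5% and 6978. In mouse 6, 76.3% of other epithelial and 79.1% of non-epithelial wells were left out, and in mouse 4, 56% and 64.2%, so the loss was not larger for epithelial wells in these mice. In mice 1 and 3 it was larger for the other epithelial wells, with 60% of 5 and 76.9% of 13 against 39.7% and 48.8% of non-epithelial wells. Of the squamous wells of mouse 1, 3 were under the limit and 0 were left out. In mouse 5 the loss was 58.0% of squamous, 28.6% of other epithelial and 34.6% of non-epithelial wells. *Nkd1*, *Notum* and *Axin2* summed to at least 5 transcripts in 63 of 103 other epithelial wells and in 0 of 41 squamous wells over the limit. In the former, *Nkd1* was at 971 CPM and *Pglyrp1* at 3127 CPM, against 1106 and 2142 CPM in the other members, while *Krt8* was at 1633 against 2966 CPM, *Krt19* at 601 against 1299 CPM, *Cldn4* at 465 against 1230 CPM and *Mmp7* at 68.1 against 219 CPM. In the latter, *Krt14* was at 2178 CPM, *Trp63* at 226.5 CPM and *Krt5* at 778 CPM, against 2447, 346 and 2418 CPM in the squamous members.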

How the data were processed

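Single cells of 3 FibCtrl and 3 FibΔZeb1 mice were analysed, 1 plate each. The authors mapped reads with BWA to the mouse transcriptome (GRCm38) and deposited 2 tables per plate, barcode counts (whole counts of distinct molecular barcodes per gene and well) and transcript counts. The deposited transcript counts are estimated counts, which the authors made by correcting the barcode counts for barcodes drawn more than once. The submitters' processing notes also list Cell Ranger 2.1.1. Spike-in rows were dropped, rows of 1 gene were summed, and estimated transcript counts were used for the rule and for levels, given as counts per 1e+06 pooled transcripts (CPM). Sums per mouse were rounded for edgeR 4.0.16 (TMM, filterByExpr, Benjamini-Hochberg adjustment over all genes, adjusted p under 0.05), with DESeq2 1.42.0 as an alternative. Ratios used a floor of 3 transcripts. The edgeR fit was tested on simulated counts of the member sums with 200 genes changed 8-fold, and recovered 30% of them at the dispersion of the data (2 false calls among 4427 genes). Doublets were not called. Intervals and floors cover counting error only, since wells of 1 mouse are not replicates.

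The members and gene lists were chosen with earlier results of these data known, and the lists of cholesterol and fatty acid genes after the members had been seen. Named genes were those of the rule, of each list up to 4 with the highest level in either kind of well, genes called or with the smallest p between genotypes, and the 15 with the largest ratio in either direction among genes with at least 50 transcripts in wells of at least 3 mice; genes named in addition were chosen after their values had been seen, as were wells singled out. Some genes are not reported here.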

Additional observations from a re-analysis of the deposited data

Results flagged for a closer look

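Epithelial wells at or over the mitochondrial limit, which were not members, were more numerous in 1 FibΔZeb1 mouse than in any FibCtrl mouse for each kind. Mouse 5 had 40 such squamous wells, where the highest FibCtrl mouse had 1, and mouse 6 had 58 such other epithelial wells, where the highest FibCtrl mouse had 28. Each excess belonged to a single mouse, as among the members, and was not tested. The other FibΔZeb1 mice had 0 and 0 such squamous wells and 2 and 2 such other epithelial wells. With 3 mice a genotype, single mice were not tested as outliers.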

How the results depend on the processing

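The difference in the share of squamous wells kept its direction in 12 of 13 alternatives and that of the other members in 12 of 13, and no permutation test could pass 0.05 in any. Leaving out each mouse in turn gave -0.357 to 6.68 percentage points for squamous wells, negative without FibΔZeb1 mouse 5, and -5.68 to 8.84 for the other members, negative without FibΔZeb1 mouse 6. Without the wells rich in fibroblast transcripts the differences were 3.01 and 2.45 percentage points. The mitochondrial limit moved the numbers most. With a limit of 30% there were 191 members, 76 of them squamous, and with only genes named mt- counted as mitochondrial 180 and 76, with differences of 6.63 and 0.914 and of 6.72 and 1.40 percentage points. The count of genes called between genotypes in all members was 0 with edgeR and with barcode counts, 4 with DESeq2 and 99 with no filter on low counts, 0 to 412 when each mouse was left out, with a lone mouse assumed to vary like the others, and 1 in the other members only. It was 3 without mouse 4, 79 without mouse 5 and 412 without mouse 6; the cause was not tested. Without the fibroblast-rich wells, which left 1 FibCtrl and 2 FibΔZeb1 mice with at least 5 members, edgeR called 0 of 5821 genes, with 51 at an unadjusted p under 0.05. No fit was made in squamous wells alone, where only mouse 5 had 5 wells. No paired analysis was possible because the labels give the mice no shared numbers across genotypes. Depth limits single wells: thinning to 500 barcodes lowered the share of squamous wells with *Trp63* from 77.1% to 14.3%.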
